A study of Caenorhabditis elegans with 24 samples.

Results

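The UDP-glucuronosyltransferase (UGT) genes of Caenorhabditis elegans were followed across 4 genotypes of a worm model of polyglutamine aggregation. Members were the genes that the count table names ugt followed by a number and that had at least 10 counts in at least 6 of the 24 libraries. By this rule 60 of the 46778 genes in the table were members, out of 65 genes with such a name. The other 5 genes, ugt-10, ugt-14, ugt-15, ugt-27 and ugt-38, never exceeded 17 counts in any library. A pair of further genes, which the reference annotation calls ugt-66 and ugt-67, stand in the table under other names and were not members. Of the 60 members, 59 had enough counts for the test (edgeR filterByExpr). The exception, ugt-42, had 0 to 14 counts per library and is described by its level only.

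UGT enzymes transfer the sugar of UDP-glucuronic acid or UDP-glucose onto small lipophilic molecules, which makes them more soluble and easier to excrete. With cytochrome P450 enzymes, which oxidise such molecules, and glutathione S-transferases, which couple them to glutathione, they form the classical enzymes of drug and steroid detoxification. In worms the family is large, many of its genes lie next to each other, and glucosides rather than glucuronides are the usual products. For most single worm ugt genes the substrate is unknown, so members are described below by their level and chromosomal place.

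All animals carried rmIs133, a transgene in which the muscle myosin promoter unc-54p drives 40 glutamines fused to YFP (40Q::YFP), and the strain with this transgene alone is called 40Q. The other 3 genotypes added unc-1(vlt10), nhr-1(vlt16) or both alleles (double mutants). The allele unc-1(vlt10) came from chemical mutagenesis and nhr-1(vlt16) from CRISPR editing; both are nonsense alleles described as putative nulls. UNC-1 is a stomatin-like protein of neurons and muscle, and NHR-1 is a nuclear hormone receptor. Each genotype is a single strain, represented by 6 biological replicates of pooled whole animals grown from synchronised L1 larvae to young adults at 20°C. The comparisons ask how transcripts differ with unc-1(vlt10), and whether that difference is still present when nhr-1 is lost as well. When the paper mapped vlt10, it found mutations dense on the left arm of chromosome X, the region of unc-1. Effects of linked changes cannot be told apart from loss of unc-1.

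Libraries held 19098458 to 30467364 counts on genes, with the double mutants deepest at 26646628 or more. Depth-normalised counts (CPM, scaled by the TMM method) were 0.652 to 1.45 for unc-1 in the libraries with vlt10 and 5.49 to 9.51 in those without. For nhr-1 they were 11.4 to 16.9 with vlt16 and 22.7 to 30.4 without, so every library matched its label at both genes. The 40Q columns carry another letter prefix than those of the 3 mutants, with no stated meaning, and anything it stands for cannot be told apart from genotype in a comparison with 40Q. No marker gene of 8 cell type lists was at 0 in any genotype, but several summed lists differed from 40Q without overlap. Of all genes tested, 25.1% were higher and 22.5% lower than in 40Q at an adjusted p below 0.05 in unc-1(vlt10). These shares were 20.4% and 21.8% in nhr-1(vlt16), and 32% passed in either direction in double mutants. In unc-1(vlt10) intestinal markers summed to 2191 to 2361 CPM against 2551 to 2959 CPM (6 of 8 lower by adjusted p, 0 higher), and excretory cell markers to 292.6 to 322.2 CPM against 506.1 to 622.3 CPM (2 of 4 lower, 0 higher). Glial markers summed to 16.82 to 19.01 CPM against 19.5 to 27.91 CPM (3 of 5 lower, 0 higher). Body wall muscle markers summed to 3968 to 4266 CPM against 4672 to 5402 CPM (3 of 6 lower, 1 higher). The lower muscle sum lay mostly in unc-54, with a mean of 2516 CPM for 40Q and 1777 CPM for unc-1(vlt10). Of the 7 hypodermal markers 1 was lower and 2 were higher, near the shares of all genes. The lower hypodermal sum lay mostly in col-19, with a mean of 1598 CPM for 40Q and 1129 CPM for unc-1(vlt10). In nhr-1(vlt16) sperm markers summed to 14.72 to 18.85 CPM against 29.05 to 38.69 CPM (5 of 5 tested lower), and muscle markers to 3857 to 4253 CPM (6 of 6 lower). There 6 of 8 intestinal markers were also lower (0 higher), and of 4 excretory markers 3 were lower and 1 was higher. Of 6 oocyte and eggshell markers 5 were higher in nhr-1(vlt16) (0 lower) and 3 in unc-1(vlt10) (0 lower). In nhr-1(vlt16) they summed to 5711 to 6492 CPM, which overlapped the 5252 to 5781 CPM of 40Q. Neuron markers summed to 351.8 to 369.1 CPM in nhr-1(vlt16) and 333 to 370.1 CPM in double mutants, against 375.7 to 420.2 CPM in 40Q. In each of these genotypes 3 of 6 were lower and 0 higher. The other summed lists of double mutants overlapped those of 40Q. By adjusted p 5 of 8 intestinal markers were lower there and 1 higher, and 4 of 6 muscle markers were lower and 0 higher. In whole animals fewer cells of a type and less RNA per cell cannot be told apart, and the part of these marker differences in the results below was not tested.

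Levels of different members were compared as FPKM, which divides by gene length. The members spanned almost 3 orders of magnitude, and a few of them made up much of the total. The highest, ugt-62 on chromosome III, had a median FPKM of 64.2 in 40Q, of 54.6 with unc-1(vlt10), of 81.7 with nhr-1(vlt16) and of 89.0 with both alleles, and ranked first in each genotype. It was followed over all libraries by ugt-64, ugt-22, ugt-58 and ugt-47, and these 5 genes held between 27.8% and 42.1% of the summed FPKM of the family in a library. At the other end ugt-42 had a median of 0.119 FPKM in 40Q.

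**Figure D1:**
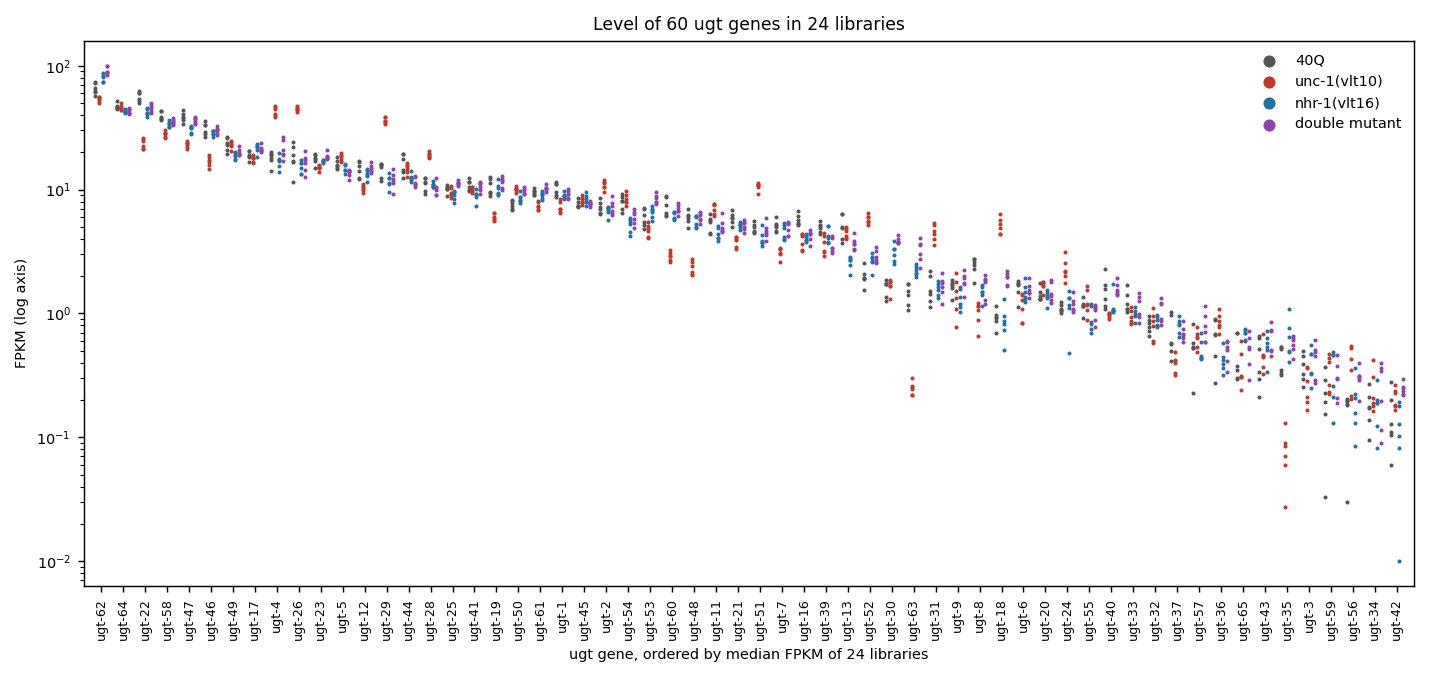
Level of each of the 60 members in each of the 24 libraries, as FPKM on a log axis, with 1 point per library coloured by genotype and genes ordered by their median over all libraries. The 1 library with no count, for ugt-42 in nhr-1(vlt16), is drawn at the lower limit; ugt-4, ugt-26 and ugt-29 stand higher in unc-1(vlt10), and ugt-22, ugt-63 and ugt-35 lower.

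The summed level of the family was similar in the 4 genotypes. Its median was 605.2 FPKM for 40Q (537.7 to 676.4 FPKM), 590.9 FPKM with unc-1(vlt10) alone (581.3 to 600.4 FPKM), 569.0 FPKM with nhr-1(vlt16) alone (520.6 to 584.3 FPKM) and 605.7 FPKM with both alleles (571.7 to 647.6 FPKM). The ranges of the 3 mutants all overlapped that of 40Q. Below this sum the order of the genes changed, as the following values show.

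In unc-1(vlt10), 14 of the 59 tested members differed from 40Q at more than 2-fold and an adjusted p below 0.05 (edgeR quasi-likelihood test, Benjamini-Hochberg adjustment over 14865 genes), the rule for a call used throughout. Of these, 8 rose, against a background of 2.68% of all genes tested, and 6 fell, against 3.25%. In the family this is 13.6% and 10.2% of the tested members. A further 25 members passed the adjusted p alone, so that without the condition on fold change 13 were higher, against 25.1% of all genes, and 26 lower, against 22.5%. These are shares of 22% and 44.1% of the tested members. The median log2 fold change was -0.18 over the members and 0.02 over all genes tested, and its median size without sign was 0.55 and 0.20. For cytochrome P450 genes 6 rose and 8 fell of 62 tested, and for glutathione S-transferase genes 1 rose and 5 fell of 39; differences between these families were not tested.

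The member with the largest rise was ugt-18 (WBGene00013900, chromosome V, 12820260 to 12822778, plus strand, in WBcel235 coordinates as for all genes here). It had 1.19 to 1.95 CPM in 40Q (median 1.59), whereas unc-1(vlt10) animals had 7.21 to 10.3 CPM (median 8.37). All 6 unc-1(vlt10) libraries lay well above all 40Q libraries. The log2 fold change was 2.41 ± 0.14 (SE), a 5.33-fold rise (edgeR adjusted p = 4.05e-17).

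The largest absolute gains were those of ugt-26, ugt-4 and ugt-29, which were already among the better expressed members. For ugt-26 (WBGene00015695, chromosome I, 4721131 to 4723982), libraries of 40Q had 22.3 to 45.9 CPM (median 34.6) and unc-1(vlt10) libraries 79.1 to 86.4 CPM (median 82.5). Its log2 fold change was 1.23 ± 0.12 (edgeR adjusted p = 3.15e-08), and the 40Q libraries were spread more widely than those of the mutant. By median FPKM it moved from rank 10 in 40Q to rank 3 in unc-1(vlt10). For ugt-4 (WBGene00013905, chromosome V, 12793014 to 12795336), 24.1 to 34.5 CPM in 40Q (median 31.4) became 63.8 to 77.0 CPM (median 69.7), a log2 fold change of 1.19 ± 0.10 (edgeR adjusted p = 4.87e-10). It went from rank 9 to rank 4, with no overlap between the genotypes. For ugt-29 (WBGene00021709, chromosome V, 696524 to 699589), 22.03 to 30.2 CPM (median 29.0) became 61.6 to 69.0 CPM (median 64.2), a log2 fold change of 1.26 ± 0.09 (edgeR adjusted p = 5.01e-12). It went from rank 14 to rank 5, again without overlap.

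The remaining named members that rose were expressed at lower levels. For ugt-52 (WBGene00018931, chromosome IV, 778784 to 784182), libraries had 2.68 to 4.32 CPM in 40Q (median 3.34) against 8.57 to 10.9 CPM in the mutant (median 9.46), with a fitted log2 change of 1.48 ± 0.10 (edgeR adjusted p = 1.55e-14). For ugt-31 (WBGene00021464, chromosome I, 2333338 to 2338693), they had 1.95 to 3.75 CPM (median 2.52) against 5.90 to 8.80 CPM (median 7.37), with a fitted log2 change of 1.45 ± 0.14 (edgeR adjusted p = 3.03e-11). Neither gene had a mutant library within the range of 40Q. The other 2 genes that rose, ugt-51 and ugt-56, fall outside the rule for naming genes and are given to complete the set. For ugt-51, libraries of 40Q had 7.55 to 9.55 CPM (median 8.29) and those of the mutant 15.1 to 18.6 CPM (median 17.8). Its log2 fold change was 1.05 ± 0.09 (edgeR adjusted p = 1.16e-12), and without 40Q replicate 6 it was 0.999 and no longer a call. For ugt-56, 1 to 8 counts per library in 40Q and 7 to 20 in unc-1(vlt10) gave 1.09 ± 0.33 (edgeR adjusted p = 0.00633). It was the only one of the 14 called genes whose libraries overlapped between the genotypes, and without 40Q replicate 2, unc-1(vlt10) replicate 3 or unc-1(vlt10) replicate 4 the value was 0.88 to 0.95 and no longer called.

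**Figure D2:**
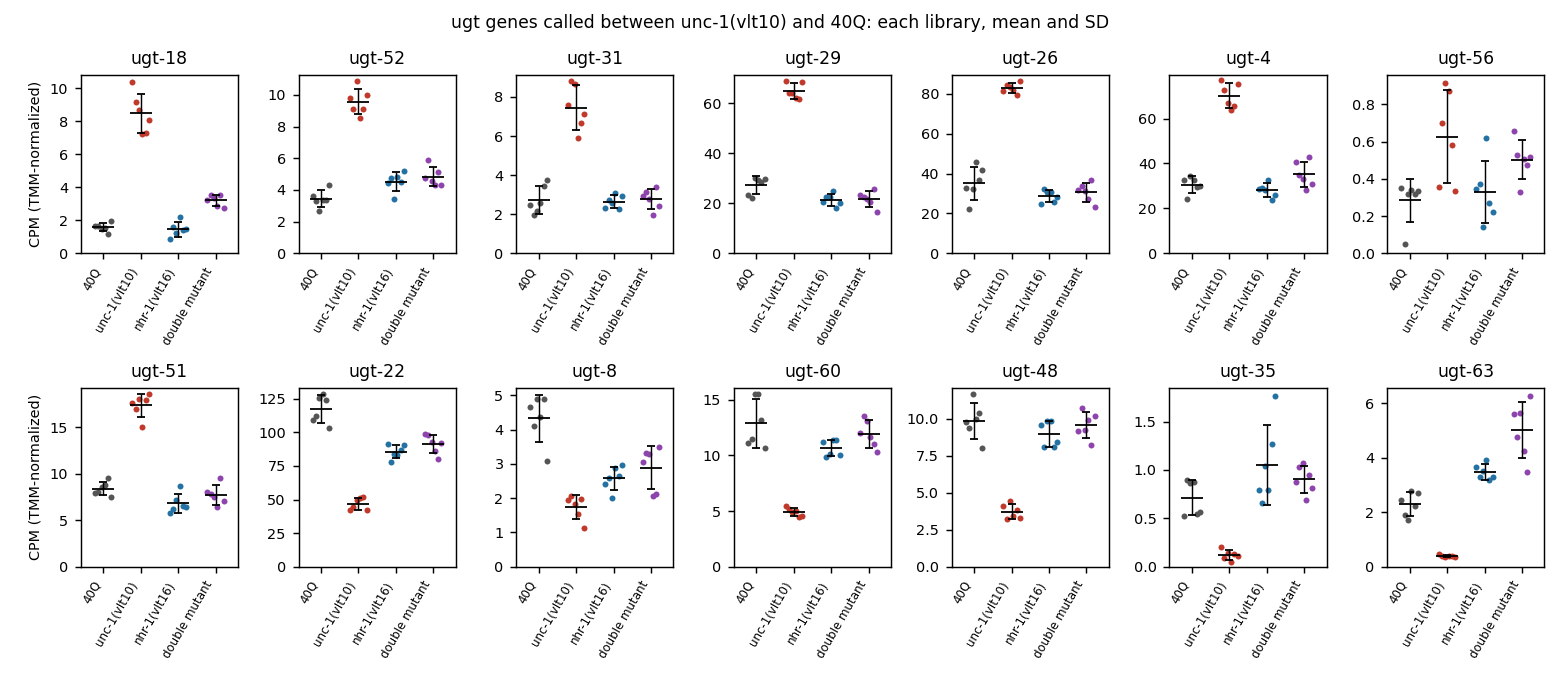
CPM of the 14 members called between unc-1(vlt10) and 40Q in each library of the 4 genotypes, with the mean and SD of 6 libraries per genotype in black and each vertical axis starting at 0. In 13 of the 14 panels the unc-1(vlt10) libraries stand apart from 40Q, and in 11 panels the double mutants overlap 40Q. The 14 genes were chosen by the first of these comparisons, which favours libraries that stand apart. Of all 59 tested members, 29 overlap between unc-1(vlt10) and 40Q and 48 between double mutants and 40Q. Shares over all genes were not computed.

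Among the members that fell, the most abundant was ugt-22, which had the second highest level in 40Q. This gene (WBGene00007455, chromosome IV, 13639260 to 13644567) had 103 to 129 CPM in 40Q (median 118), whereas unc-1(vlt10) animals had 42.0 to 52.0 CPM (median 46.9). Every mutant library was below every 40Q library. The log2 fold change was -1.32 ± 0.06, a 2.50-fold fall (edgeR adjusted p = 2.14e-15), and the gene moved to rank 7.

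The largest fall was that of ugt-63 (WBGene00015449, chromosome V, 5108180 to 5110772), from 1.73 to 2.77 CPM in 40Q (median 2.35) to 0.335 to 0.458 CPM in unc-1(vlt10) (median 0.383). The log2 fold change was -2.58 ± 0.20, a 5.96-fold fall (edgeR adjusted p = 7.41e-14), with no overlap. Counts of ugt-63 were 36 to 57 per library in 40Q and only 7 to 9 in unc-1(vlt10). A fall of similar size, -2.51 ± 0.34, was seen for ugt-35 (edgeR adjusted p = 1.31e-07), which is outside the rule for naming genes because of its low level. It rests on 12 to 19 counts per library in 40Q and 1 to 4 in unc-1(vlt10). Exons of ugt-35 overlap those of aqp-6 on the other strand, and the strand setting of the counting is not given in the sources used here.

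Falls of 2.5-fold to 2.7-fold were found for 3 further genes. For ugt-48 (WBGene00015965, chromosome V, 5545669 to 5548062), libraries had 8.02 to 11.7 CPM in 40Q (median 9.89) against 3.21 to 4.44 CPM in the mutant (median 3.66), with a fitted log2 change of -1.41 ± 0.10 (edgeR adjusted p = 8.09e-15). Its exons overlap those of cft-1 on the other strand, a gene with a median of 75 counts. For ugt-60 (WBGene00007402, chromosome III, 9676320 to 9679051), 10.6 to 15.5 CPM (median 12.3) became 4.45 to 5.45 CPM (median 4.95), a log2 fold change of -1.39 ± 0.10 (edgeR adjusted p = 4.41e-15). For ugt-8 (WBGene00019234, chromosome V, 4903930 to 4905942), 3.09 to 4.91 CPM (median 4.52) became 1.12 to 2.05 CPM (median 1.89), a log2 fold change of -1.33 ± 0.15 (edgeR adjusted p = 3.85e-09). In all 3 genes the unc-1(vlt10) libraries lay below the whole range of 40Q.

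Added together, the 8 genes that rose had a median of 61.9 FPKM for 40Q and 151.9 FPKM for unc-1(vlt10), and the 6 that fell 74.0 FPKM and 30.4 FPKM. These sums describe genes chosen by the same comparison. Among the abundant members that were not called, ugt-47 fell by 0.79 on the log2 scale, from 57.7 to 73.7 CPM in 40Q (median 64.6) to 34.8 to 40.6 CPM (median 37.9). Both ugt-58, at -0.55, and ugt-62, at -0.35, were also below every 40Q library with adjusted p under the threshold. For ugt-64 the difference was -0.09 ± 0.04 (edgeR adjusted p = 0.0602), with 73.4 to 83.3 CPM for 40Q, 67.5 to 79.1 CPM for the mutant and overlapping libraries. The member nearest to a call was ugt-24, with a log2 fold change of 0.997. On the lower side it was ugt-46, which lies on chromosome X as unc-1 does and had 52.0 to 69.5 CPM for 40Q and 27.2 to 35.8 CPM for the mutant, a fitted log2 change of -0.93 ± 0.07.

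**Figure D3:**
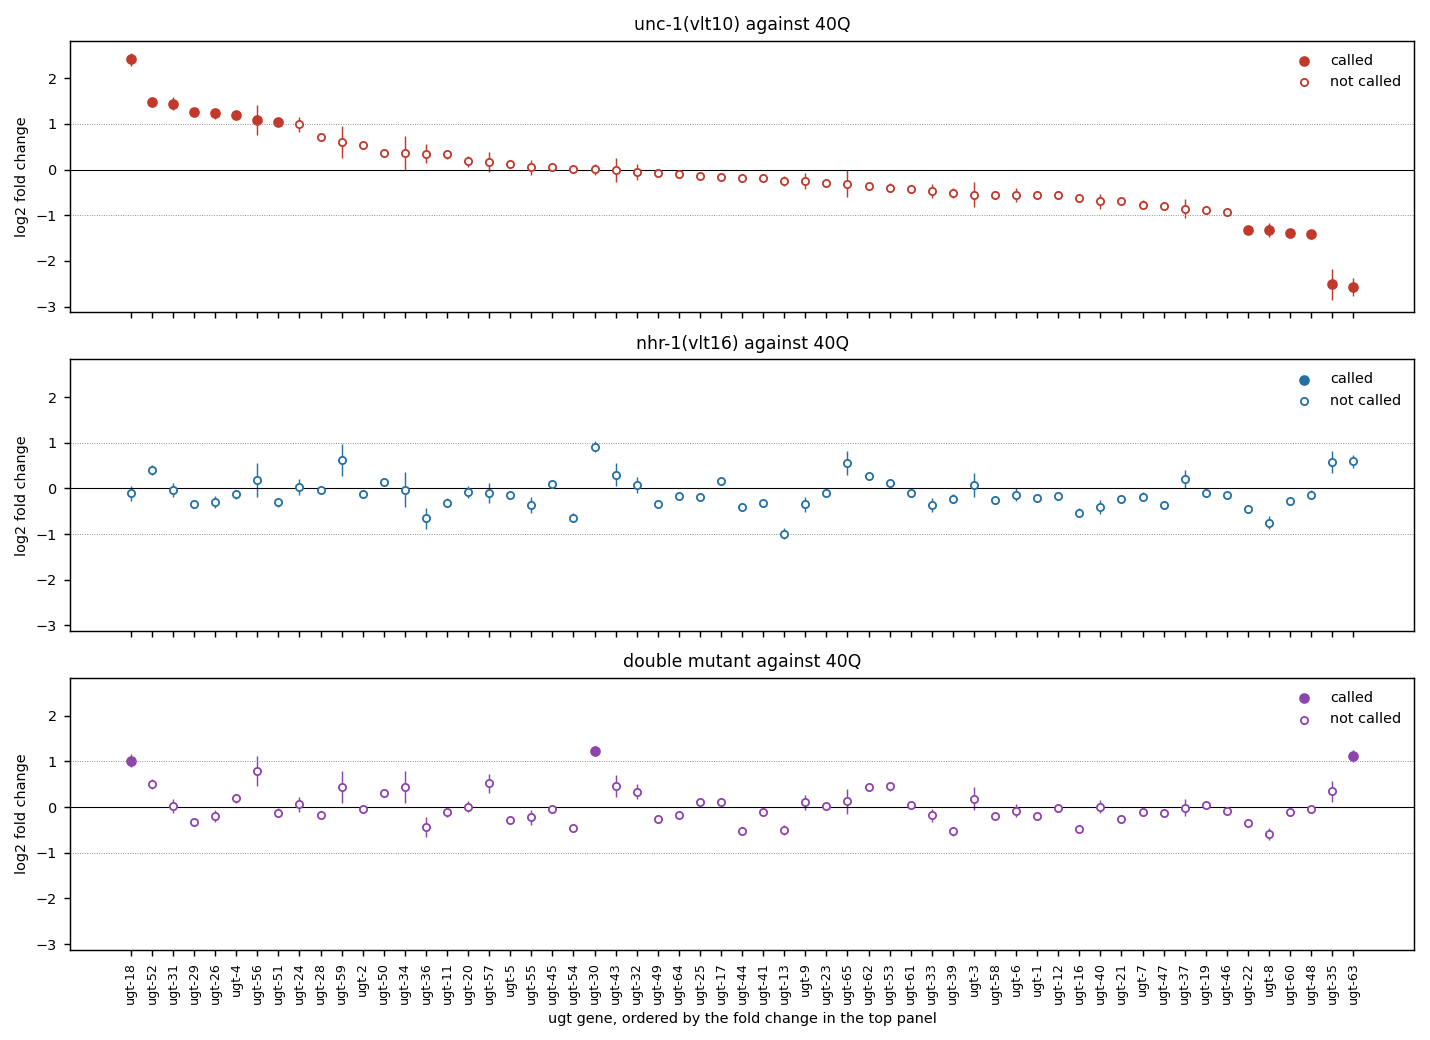
Log2 fold change against 40Q of the 59 tested members in the 3 mutant genotypes, with bars of 1 SE, filled points for called genes, dotted lines at a 2-fold change and the same gene order in the 3 panels. From top to bottom 14, 0 and 3 genes are called, and the values run from -2.58 to 2.41 in unc-1(vlt10) and from -0.99 to 0.92 in nhr-1(vlt16).

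Of the 60 members, 37 are on chromosome V, which also held 5 of the 8 genes that rose and 4 of the 6 that fell. With genes counted as neighbours when less than 20 kb lay between them, 4 clusters of at least 4 ugt genes were annotated. In none of these clusters did all tested members change in the same direction. In the cluster of 7 genes at 12790676 to 12830114 of chromosome V, ugt-18 and ugt-4 rose, while the log2 fold changes of ugt-5, ugt-6, ugt-3 and ugt-16 were 0.11, -0.55, -0.55 and -0.63. Directly beside ugt-4 lies ugt-5, yet the libraries of ugt-5 overlapped between the genotypes, with 16.1 to 20.4 CPM for 40Q against 17.6 to 20.5 CPM for the mutant. In the cluster of 4 genes on chromosome I, ugt-26 was called, ugt-28 had a log2 fold change of 0.72 with all mutant libraries above 40Q, and ugt-25 one of -0.14, although exons of ugt-25 overlap the more highly counted mlst-8 on the other strand. In the cluster that holds ugt-8, ugt-12 had -0.56 and ugt-11 had 0.33, both past the adjusted p. There ugt-9 and ugt-13 had -0.25 each, without passing it. In the last cluster none of the 5 tested genes was called, but ugt-40, ugt-37, ugt-39 and ugt-41 were lower past the adjusted p. Their log2 fold changes were -0.70, -0.85, -0.515 and -0.19, and ugt-36 had 0.35 without passing (edgeR adjusted p = 0.174). Of all genes 22.5% were lower past the adjusted p. Exons of ugt-40 and ugt-37 overlap on the same strand in that cluster. The neighbours ugt-1, at -0.55, and ugt-2, at 0.54, differed from 40Q in opposite directions, both past the adjusted p and without overlap. Beside ugt-35, at -2.51, the neighbour ugt-34 had 0.36 ± 0.37 (edgeR adjusted p = 0.447), with overlapping libraries.

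**Figure D4:**
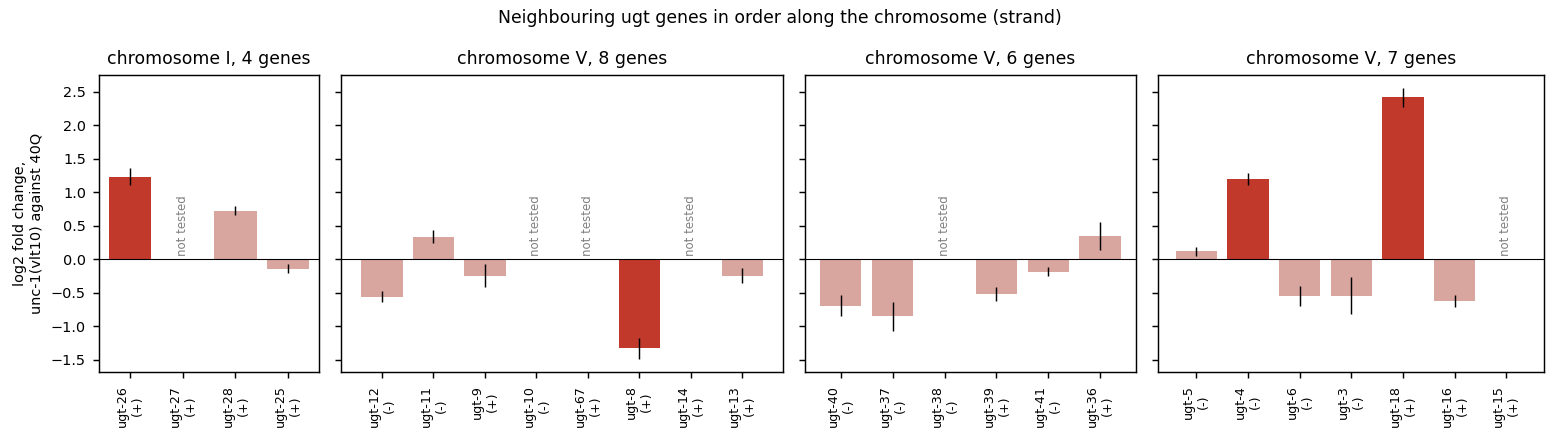
Log2 fold change between unc-1(vlt10) and 40Q for the ugt genes of the 4 largest clusters, in their order along the chromosome with the strand in brackets, bars of 1 SE and called genes in dark red. In the cluster of 7 genes ugt-18 reaches 2.41 and ugt-4 1.19, with bars at or below 0.11 for the other tested genes.

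In nhr-1(vlt16) no member was called against 40Q by edgeR in either direction, against backgrounds of 1.37% of all genes for higher and 1.32% for lower calls. DESeq2 gave 0 as well. By adjusted p alone, 6 members were higher, with 20.4% of all genes as background, and 20 were lower, with 21.8%. At an unadjusted p under 0.05 there were 36 members, 8 higher and 28 lower. The share of all genes at an unadjusted p was not computed, so such counts, here and below, have no background. The median log2 fold change of the members was -0.14, compared with -0.0042 over all genes tested. The largest difference was that of ugt-13 (WBGene00019232, chromosome V, 4908884 to 4911399), with 6.31 to 10.6 CPM in 40Q (median 8.27) and 3.45 to 4.73 CPM in nhr-1(vlt16) (median 4.43). Its libraries did not overlap, and the log2 fold change of -0.99 ± 0.12 (edgeR adjusted p = 2.12e-08) was just short of the 2-fold limit. It became a call, at -1.08 to -1.01, in 19 of the 24 fits that left out 1 library. Among the genes called in unc-1(vlt10), ugt-22 and ugt-8 were also lower in nhr-1(vlt16) than in every 40Q library, with log2 fold changes of -0.45 and -0.75, whereas ugt-63 was higher, with 3.18 to 3.93 CPM and a log2 fold change of 0.59 ± 0.14.

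In double mutants 3 members were higher than in 40Q, against a background of 1.27% of all genes, and none was lower, against 0.727%. DESeq2 gave the same number in each direction, and at an unadjusted p under 0.05 edgeR found 16 members lower. The largest rise was that of ugt-30 (WBGene00011340, chromosome V, 15121724 to 15125262), which did not differ between unc-1(vlt10) and 40Q beyond the spread of the libraries. It had 2.23 to 3.36 CPM in 40Q (median 3.13), 2.24 to 3.24 CPM in unc-1(vlt10) (median 3.02), 4.59 to 6.80 CPM in nhr-1(vlt16) (median 5.51) and 6.32 to 7.61 CPM in double mutants (median 6.68). Both genotypes with vlt16 thus lay above both without it. The log2 fold change was 1.22 ± 0.11 in double mutants (edgeR adjusted p = 3.80e-11) and 0.92 ± 0.11 in nhr-1(vlt16) (edgeR adjusted p = 6.20e-08).

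The other 2 were genes already called in unc-1(vlt10), and they stood in different relations to it. For ugt-63, which fell in unc-1(vlt10), double mutants had 3.48 to 6.27 CPM (median 5.19), above every 40Q library, with a log2 fold change against 40Q of 1.12 ± 0.13 (edgeR adjusted p = 1.78e-08). For ugt-18, double mutants had 2.73 to 3.54 CPM (median 3.28), above every 40Q library and below every unc-1(vlt10) library. Its log2 fold change against 40Q was 1.02 ± 0.15 (edgeR adjusted p = 1.48e-06), and without any one of 6 libraries (40Q replicates 3, 4 and 5, double mutant replicates 2, 3 and 5) it was 0.93 to 1.00 and no longer called.

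Double mutants and unc-1(vlt10) animals differ by the nhr-1(vlt16) allele, and 10 members were called between them. Of these, 5 were higher in double mutants, with 3.55% of all genes as background, and 5 were lower, with 2.4%. The largest difference was that of ugt-63, whose median went from 0.383 CPM in unc-1(vlt10) to 5.19 CPM in double mutants, a log2 fold change of 3.69 ± 0.17 (edgeR adjusted p = 1.01e-19). The next ones upward among the named genes were ugt-48, at 1.37 ± 0.10, and ugt-60, at 1.28 ± 0.09. Downward they were ugt-29, at -1.58 ± 0.09, ugt-26, at -1.43 ± 0.12, and ugt-31, at -1.42 ± 0.13. Their double mutant libraries, with 16.6 to 25.6 CPM for ugt-29, 23.4 to 36.9 CPM for ugt-26 and 1.98 to 3.41 CPM for ugt-31, did not overlap those of unc-1(vlt10). Apart from ugt-30, all genes called here were also called between unc-1(vlt10) and 40Q, which rests on the same unc-1(vlt10) libraries.

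Of the 14 genes called in unc-1(vlt10), 13 had an adjusted p under the threshold when double mutants were set against unc-1(vlt10), and 9 of these were calls, where 43.1% of all genes passed the adjusted p. The exception was ugt-56, at -0.31 ± 0.29. The 14 genes were chosen with the same unc-1(vlt10) libraries, which favoured differences in this comparison too. Against 40Q, 6 of the 14 passed the adjusted p in double mutants and 8 did not, against 32% of all genes that passed. Libraries of these genotypes overlapped for 11 of the 14, and for 48 of all 59 tested members. The share of all genes with overlapping libraries was not computed. For ugt-22 double mutants had 80.3 to 98.6 CPM (median 92.5), between the 2 other genotypes and overlapping neither, with log2 fold changes of -0.36 ± 0.06 against 40Q and 0.96 ± 0.06 against unc-1(vlt10). For ugt-52 double mutants had 4.32 to 5.89 CPM, touching the top of the 40Q range, with a log2 fold change of 0.50 ± 0.11 against 40Q.

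The effect of unc-1(vlt10) when nhr-1 was lost was read from double mutants against nhr-1(vlt16), a comparison that shares no library with unc-1(vlt10) against 40Q. There 1 member was higher, ugt-18, against a background of 0.592%, and none was lower, against 0.215%. With edgeR 3 members were lower at an unadjusted p under 0.05, and DESeq2 also called none lower. For ugt-18 nhr-1(vlt16) libraries had 0.837 to 2.21 CPM (median 1.43), below all double mutants, and the log2 fold change was 1.13 ± 0.15 (edgeR adjusted p = 6.75e-07). Among the 14 genes called in unc-1(vlt10), 3 passed the adjusted p here, against 18.5% of all genes, namely ugt-18, ugt-4 at 0.32 ± 0.10 and ugt-63 at 0.52 ± 0.12, the last of these opposite in sign to its fall in unc-1(vlt10). All 8 genes that rose in unc-1(vlt10) had a positive value in this comparison and 1 of the 6 that fell had a negative value, while 47 of the 59 members were positive.

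The difference between both effects of unc-1(vlt10), with and without nhr-1(vlt16), was tested as an interaction. It was called for 14 members, 9 with a positive value, against a background of 5.31%, and 5 with a negative value, against 3.4%. For 11 of the 14 genes called in unc-1(vlt10) the interaction was a call, and its sign was opposite to the change in unc-1(vlt10). These genes were chosen by that change, which enters the interaction with its sign reversed. The choice therefore favoured both the calls and the opposite sign. The largest values among the named genes were those of ugt-63, at 3.10 ± 0.23 (edgeR adjusted p = 1.53e-13), ugt-60, at 1.56 ± 0.13, and ugt-48, at 1.50 ± 0.13. On the negative side they were ugt-52, at -1.38 ± 0.15, ugt-31, at -1.38 ± 0.20, and ugt-18, at -1.29 ± 0.21. For ugt-4 the interaction was -0.87 ± 0.14, past the adjusted p and under 2-fold, and for ugt-56 it was -0.49 ± 0.47 (edgeR adjusted p = 0.401). Since both effects enter the same value, the interaction shares the libraries of the comparisons above. Between the single mutants, 8 members were higher in unc-1(vlt10) than in nhr-1(vlt16), with 3.13% as background, and 5 were lower, with 2.66%.

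Genes that supply or use the sugar donor or act beside the UGT enzymes were read from lists. Of 14 genes for UDP-sugar supply or use, for sulfation (the parallel route of conjugation) and for sulfate removal (sul-1, sul-2 and sul-3), 13 were tested. None of these was called by edgeR or DESeq2 in any mutant genotype against 40Q. The sulfotransferase gene ssu-1 was too low to test, with means of 0.254 CPM for 40Q and 0.330 CPM for unc-1(vlt10). By adjusted p alone 0 were higher in unc-1(vlt10), against 25.1% of all genes, and 2 lower, against 22.5%. The lower ones were D1005.2, at -0.69 ± 0.10, and sul-3, at -0.65 ± 0.14. At an unadjusted p under 0.05 edgeR found 1 higher and 3 lower in unc-1(vlt10), 3 higher in nhr-1(vlt16) and 5 higher in double mutants. For sqv-4, the UDP-glucose dehydrogenase that makes UDP-glucuronic acid, the mean was 213.9 CPM for 40Q and 223.5 CPM for unc-1(vlt10), with a fitted log2 change of 0.06 ± 0.03 (edgeR adjusted p = 0.0663). Of 24 regulators of the xenobiotic response and export pumps, 1 rose and 1 fell in unc-1(vlt10), or 4.17% each way, near the 2.68% and 3.25% of all genes. By adjusted p alone 3 of the 24 were higher, against 25.1% of all genes, and 13 lower, against 22.5%. Both called genes encode ABC transporters. They were pgp-5, with a mean of 21.9 CPM for 40Q and 75.6 CPM for unc-1(vlt10), and pgp-1, with 49.4 CPM and 15.5 CPM. For the transcription factor skn-1, a regulator of detoxification genes, the mean was 223.8 CPM for 40Q and 223.2 CPM for unc-1(vlt10), and for the nuclear receptor nhr-8 it was 18.5 CPM and 14.7 CPM, with a fitted log2 change of -0.33 ± 0.07.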

How the data were processed

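The authors aligned reads to WBcel235 with HISAT2 2.0.5 and counted them per gene with HTSeq 0.6.1 (versions from the submitters' processing notes). The deposited counts are whole numbers without normalization, and the deposited FPKM values equal count divided by library total and gene length. The 6 deposited tables of comparisons hold the authors' own group values, fold changes and p-values and were not used. Gene positions and exons came from Ensembl release 115 (WBcel235). Annotation release, strand setting and treatment of multi-mapped reads are not given in the sources used here, so related members could share reads.

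Counts were fitted in R 4.3.3 with edgeR 4.0.16 (TMM, filterByExpr, robust quasi-likelihood F-tests, 24 libraries, 4 genotypes as the only term). Members, gene lists and tests were chosen with earlier results of these data known. Genes given in full were called genes at a log2 CPM of 0 or more on average, up to 6 in each direction for unc-1(vlt10) against 40Q and up to 3 for nhr-1(vlt16) and double mutants against 40Q, double mutants against unc-1(vlt10) and the interaction, and the 5 highest by FPKM. Other genes named were chosen after their values were seen. The alternatives were DESeq2 1.42.0, no filter on low counts, RLE or total counts instead of TMM, 1 CPM in 6 libraries, a replicate block, only the genotypes compared, no fold threshold, and each library left out. On simulated counts for unc-1(vlt10) against 40Q (14527 genes), 50 of 50 genes raised 4-fold and 26 of 50 raised 2-fold were called. Figures were drawn with matplotlib 3.10.9.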

Additional observations from a re-analysis of the deposited data

Results flagged for a closer look

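In 14 members the effect of unc-1(vlt10) differed with and without nhr-1(vlt16) by the edgeR interaction test. On the log2 scale the difference was positive for ugt-63 (3.10), ugt-35 (2.29), ugt-60 (1.56), ugt-48 (1.50), ugt-8 (1.49), ugt-22 (1.42), ugt-40 (1.11), ugt-19 (1.04) and ugt-47 (1.02). It was negative for ugt-52 (-1.38), ugt-31 (-1.38), ugt-18 (-1.29), ugt-29 (-1.24) and ugt-26 (-1.14). Adjusted p-values of these edgeR tests ran from 4.31e-14 for ugt-47 to 7.87e-05 for ugt-40, whose exons overlap those of ugt-37. The call was lost for ugt-47 with total counts in place of TMM (0.98) and for ugt-40 without 40Q replicate 4 (0.99).

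Among the 64 sets of 6 libraries looked at (16 named genes in 4 genotypes), 2 had a library far from the others, where chance gives about 1 in 20. For ugt-30, unc-1(vlt10) replicate 1 had 2.24 CPM and the others 2.89 to 3.24 CPM. For ugt-64, 40Q replicate 4 had 83.4 CPM and the others 73.4 to 76.6 CPM.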

How the results depend on the processing

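Without the condition on fold change, the number of members past the adjusted p was 39 for unc-1(vlt10) against 40Q, 26 for nhr-1(vlt16) against 40Q, 23 for double mutants against 40Q, 41 for double mutants against unc-1(vlt10), 15 for double mutants against nhr-1(vlt16), 43 for unc-1(vlt10) against nhr-1(vlt16) and 37 for the interaction. Of all genes, 25.1% were higher and 22.5% lower past the adjusted p in unc-1(vlt10) against 40Q, and 20.4% and 21.8% in nhr-1(vlt16) against 40Q. In either direction it was 32% for double mutants against 40Q, 43.1% against unc-1(vlt10) and 18.5% against nhr-1(vlt16). No such share was computed between the single mutants or for the interaction, so those counts have no background. With DESeq2 double mutants against nhr-1(vlt16) had 2 calls instead of 1, the added one being ugt-42, which edgeR's filter left out. Of the 8 libraries in which ugt-42 reached 10 counts, 2 were outside the double mutants, so it is a member through the genotype in which it was highest and had to differ. With each library left out in turn, the calls were 13 to 15, 0 to 1, 2 to 3, 10 to 12, 1, 12 to 14 and 13 to 16 in the same order of comparisons. The 1 gene gained in nhr-1(vlt16) was ugt-13. Several other members lie near the 2-fold limit: ugt-24 gained a call in unc-1(vlt10) against 40Q in 7 of 31 alternatives, ugt-46 one for the interaction in 17 of 30, and ugt-4 one in double mutants against unc-1(vlt10) in 8 of 31. Between the single mutants ugt-36 lost its call in 6 of 31 alternatives and ugt-37 in 3. The remaining alternatives stayed within 1.5 times the main counts. Of 800 values of named genes under the alternatives, 794 kept direction and call, 6 kept direction without the call (ugt-18 in double mutants against 40Q, with 1 library left out) and 0 reversed.

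Same-numbered libraries of different genotypes did not deviate together (3 of 36 pairs had a correlation over 0.1), so the numbers were not used to pair them. A fit with a replicate block gave 14, 0, 3, 11, 1, 13 and 14 calls in that order. With total counts in place of TMM the median log2 fold change of members in double mutants against 40Q changed from -0.04 to 0.01, and the calls over all genes in unc-1(vlt10) against 40Q from 399 higher and 483 lower to 466 and 425. Low counts limit ugt-35, ugt-56 and ugt-42, and in unc-1(vlt10) also ugt-63.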
